A study of Mus musculus with 8 samples.

Results

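The core of odor transduction in canonical olfactory sensory neurons (OSNs) was followed here through 7 genes: Adcy3, Cnga2, Cnga4, Cngb1, Ano2, Omp and Stoml3. They were listed by name, with earlier results of these data known. Each was read from the transcript cluster that carries its symbol alone and has the highest mean. A transcript cluster combines the probes over all exons of a gene into 1 value. All 7 were found among the 19928 genes tested. RNA came from the olfactory mucosa of mice at postnatal day 3, on a mixed 129 x C57BL/6J background, with 1 array per mouse. The mutants were 4 123Cre:Lhx2fl/fl mice (cKO in the plots), in which Cre, from a transgene that is switched on in immature OSNs, can recombine both floxed alleles of the transcription factor gene Lhx2. Recombination in this line is partial, and most OSNs of the mutants still contain Lhx2 mRNA by the account of the study. The 4 controls were littermates, 2 of them Lhx2fl/+ without Cre and 2 of them 123Cre:Lhx2fl/+, in which 1 allele can recombine, so all 8 mice carried at least 1 floxed allele.

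In the cilia of these neurons, an odorant receptor activates a G-protein, adenylyl cyclase 3 (Adcy3) makes cyclic AMP, and cyclic AMP opens a cation channel built from the subunits Cnga2, Cnga4 and Cngb1. The calcium that enters opens the chloride channel Ano2, which enlarges the current. Omp, the olfactory marker protein, and Stoml3, a membrane protein of the stomatin family in OSN cilia, are products of mature OSNs that accompany this machinery.

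Stretches of the promoters of the channel subunit genes are shown because the largest and one of the smallest falls in the core were those of subunits of 1 channel. Each is the 150 bases before an annotated transcript start, 5′ to 3′ on the strand of the gene, from RefSeq on GRCm38.p6. Capitals mark matches to CCCNNGGG, the inner part of the palindromic site of Ebf proteins (transcription factors of OSNs), or to TAATNA, a sequence of the homeodomain type that LIM-homeodomain proteins such as Lhx2 bind, searched on both strands.
Cnga4, chr7:105404418-105404567, plus strand: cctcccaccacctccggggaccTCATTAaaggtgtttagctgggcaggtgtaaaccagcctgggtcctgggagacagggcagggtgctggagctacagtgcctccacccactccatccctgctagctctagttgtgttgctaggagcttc
Cnga2, chrX:71991699-71991848, plus strand: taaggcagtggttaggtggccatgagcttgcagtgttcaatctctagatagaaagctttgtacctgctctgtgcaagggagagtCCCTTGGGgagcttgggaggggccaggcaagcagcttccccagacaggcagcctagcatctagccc
Cngb1, chr8:95306586-95306735, minus strand: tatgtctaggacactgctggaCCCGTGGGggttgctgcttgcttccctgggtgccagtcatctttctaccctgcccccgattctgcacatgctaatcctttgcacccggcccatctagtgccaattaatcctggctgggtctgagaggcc
The Cnga2 and Cngb1 stretches end just before the first base of the RefSeq gene. The Cnga4 stretch belongs to a start 4544 bases into the RefSeq gene.

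Promoter windows, which run from 250 bases before a start to 50 bases from it, were found for 6 of the 7 genes (9 windows), and none was found for Omp. CCCNNGGG was present in 4 of these 9 windows, 1 each for Cnga2, Cnga4, Cngb1 and Ano2, against 13.7% of 32851 windows of all genes. In Cnga4 it lay downstream of the start, from base 25 to base 32. The longer palindrome, with T before and A after CCCNNGGG, was in 0 of the 9 windows, against 0.904% of all windows. At so low a share, its absence from 9 windows says little. TAATNA was present in 4 of the 9 windows, those of Cnga4, Stoml3 and 2 of Ano2, against 26.5% of all windows. The homeodomain sequence TAATTA, an instance of TAATNA, was in 0 of the 9 windows, against 5.29% of all windows. Such matches describe the letters of these windows and say nothing of binding.

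The mRNAs of the core were lower in the mutants as a group. Because the list was drawn up with earlier results known, the shares over all genes given below do not test it. All 4 mutants lay below all 4 controls for each of the 7 genes, a pattern shown by 8.43% of all genes tested. Cnga4 fell to 32.9% of the control level, Omp to 51.2% and Adcy3 to 55.1%, and these 3 passed an adjusted p under 0.01 in limma, which 2.07% of all genes did in this direction. Cngb1, Ano2, Cnga2 and Stoml3, at 54.8% to 66.7% of control, missed 0.01 and passed 0.05, so that all 7 were lower at 0.05, against 5.17% of all genes. None of the 7 rose, while 0.0602% of all genes were higher at 0.01 and 0.366% at 0.05, and 3.18% had all mutants above all controls. In RNA of whole mucosa, fewer mature OSNs and less of an mRNA per OSN cannot be told apart. The median log2 difference of the 7 genes was -0.86, against 0.03 over all genes tested.

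**Figure D1:**
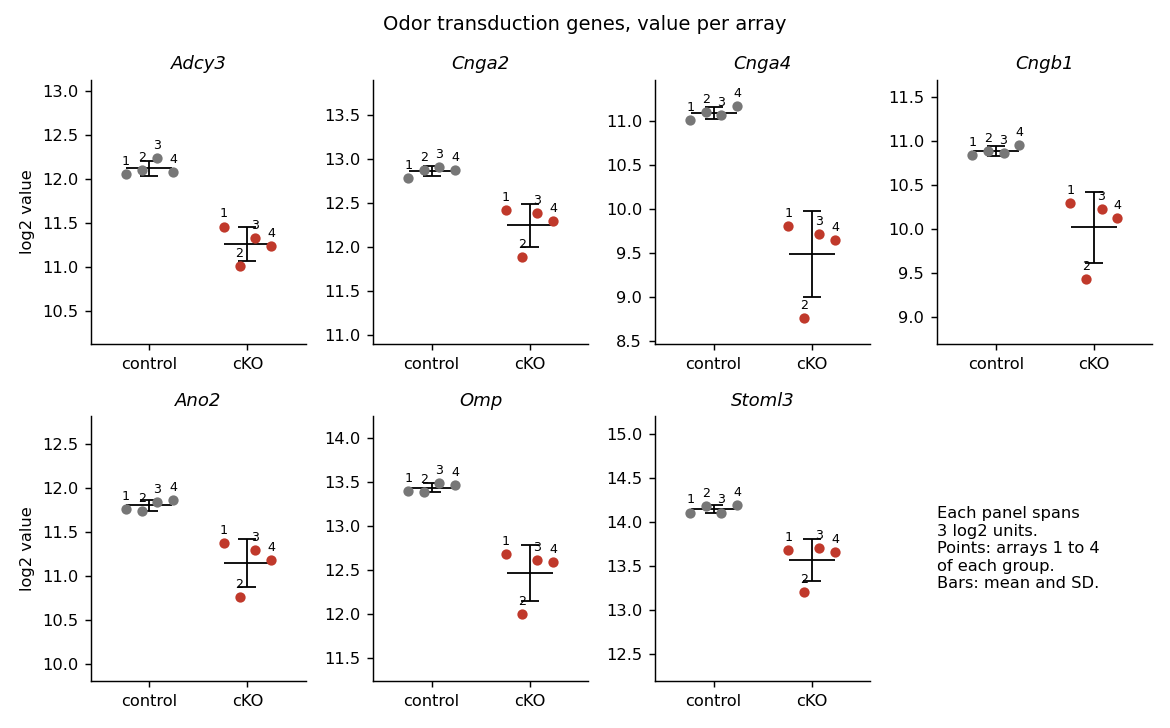
Log2 values of the 7 core genes are plotted for controls (grey) and cKO mice (red), with numbered points for arrays 1 to 4 of each group and bars for mean and SD, on vertical axes of equal span. All red points lie below all grey points in each panel, and cKO mouse 2 is the lowest point of every panel.

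Adcy3, the enzyme that turns receptor activation into cyclic AMP, read 11.46, 11.01, 11.33 and 11.24 on the log2 scale in the mutants and 12.06, 12.10, 12.24 and 12.08 in the controls, each in the order of mice 1 to 4 as in all such lists here. The groups were 0.60 apart at their nearest values, the widest separation after those of Cnga4 and Omp. The mean was 11.26 ± 0.19 in mutants and 12.12 ± 0.08 in controls (SD, n = 4 each), and the log2 difference was -0.86 (SE 0.09, adjusted p = 0.00267 by limma). It had the smallest p of the 7 genes, since its SE was the smallest of the core. Cnga4 and Omp fell further, and so by a little did Cngb1 (-0.87).

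Of the channel subunits, Cnga4, a modulatory subunit that speeds the response of the channel to calcium-calmodulin, was affected most. It read 9.81, 8.76, 9.72 and 9.65 in the mutants and 11.01, 11.10, 11.07 and 11.17 in the controls. Its log2 difference of -1.60 (SE 0.20, adjusted p = 0.00434 by limma) ranked 67th from the lowest among all genes tested. Mutant 2 stood 0.96 below the mean of the other mutants, while those differed from one another by at most 0.16. Cnga2, the principal subunit that binds cyclic AMP and can form a channel on its own, read 12.42, 11.89, 12.39 and 12.30 in the mutants and 12.78, 12.88, 12.91 and 12.88 in the controls. Its highest mutant was 0.36 below its lowest control, and its difference of -0.62 (SE 0.11, adjusted p = 0.0133 by limma) missed the threshold of 0.01.

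Cngb1, which encodes the subunit that helps bring the channel into the cilium, read 10.30, 9.43, 10.23 and 10.13 in the mutants and 10.84, 10.89, 10.86 and 10.96 in the controls. The difference was -0.87 (SE 0.17, adjusted p = 0.0210 by limma), and mutant 2 lay 0.80 under the other mutants. Of the 7 genes Cngb1 alone had more than 1 cluster of its own, and its 3 clusters did not move together. The second cluster read 8.80, 8.88, 8.80 and 8.97 in the mutants against 8.71, 8.78, 8.88 and 8.53, and the third read 8.50, 8.38, 8.14 and 8.54 against 8.46, 8.25, 8.23 and 8.23. In both the groups overlapped, and the differences were 0.14 (95% confidence interval -0.04 to 0.32) and 0.10 (-0.11 to 0.31), against -1.26 to -0.48 for the cluster that represents the gene. Cngb1 is known to give a long product in rod photoreceptors and a shorter one in OSNs, which lacks the amino-terminal part of the long one. The exons under each cluster were not looked up here, and the part of these products in the result was not tested.

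**Figure D2:**
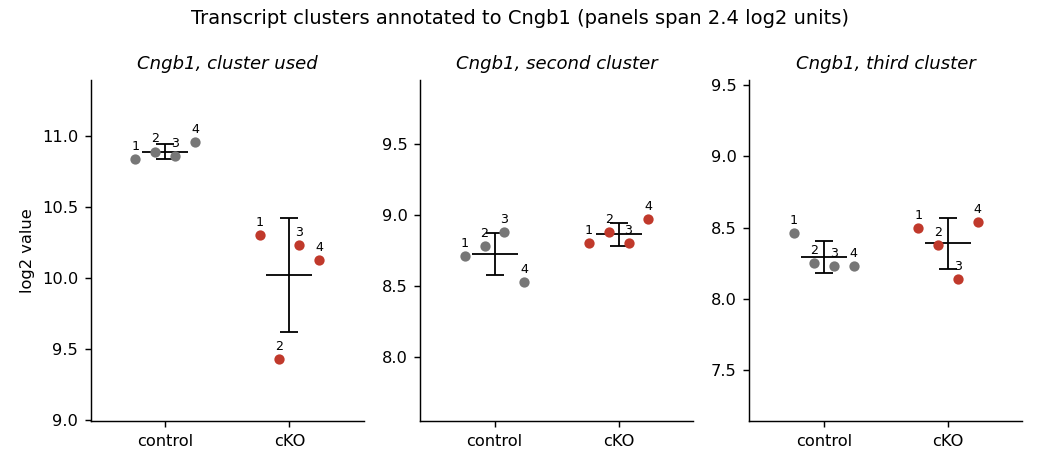
Log2 values of the 3 transcript clusters annotated to Cngb1 are plotted for controls (grey) and cKO mice (red), with numbered points for arrays and bars for mean and SD. The groups are separate in the left panel, where the difference is -0.87, and overlap in the other panels, where the differences are 0.14 and 0.10.

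Ano2, the calcium-activated chloride channel of OSN cilia, read 11.37, 10.76, 11.29 and 11.18 in the mutants and 11.76, 11.74, 11.84 and 11.86 in the controls. The difference was -0.65 (SE 0.12, adjusted p = 0.0161 by limma), or 36.3% lower. Stoml3 read 13.69, 13.21, 13.71 and 13.66 in the mutants and 14.11, 14.18, 14.11 and 14.19 in the controls, with a difference of -0.58 (SE 0.11, adjusted p = 0.0151 by limma), the smallest of the core. Its values lie near the top of the scale of these arrays, whose highest value was 14.96, and whether this compressed its difference was not tested.

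Omp, the defining marker of mature OSNs, read 12.68, 12.0, 12.62 and 12.59 in the mutants and 13.40, 13.39, 13.49 and 13.47 in the controls. Outside mutant 2 each group was tight, with ranges of 0.09 in the other mutants and 0.10 in the controls. The difference was -0.97 (SE 0.14, adjusted p = 0.00605 by limma). Leaving mutant 2 out gave -0.81.

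The calls depended on single arrays. Without mutant 2, all 7 genes passed 0.01 although each difference was smaller, from -0.46 for Stoml3 to -1.36 for Cnga4. Cngb1 gave -0.67 then. Without mutant 3, mutant 4 or any 1 of the controls 1 to 4, 0 of the 7 passed by limma, with adjusted p-values of up to 0.0126 for Adcy3, 0.0182 for Cnga4 and 0.0242 for Omp. At an unadjusted p under 0.05, all 7 were lower under each of these omissions. Leaving out mutant 1 kept the count at 3. Mutant 2 was the lowest of the 8 arrays for all 7 genes, against 14.8% of all genes. It was also lowest for Lhx2, which read 13.03, 12.55, 13.01 and 13.02 in the mutants and 13.14, 13.09, 13.20 and 13.13 in the controls (difference -0.24, adjusted p = 0.337 by limma), with all mutants below all controls as in the core and a difference of -0.12 without mutant 2. Among the mutants, mutant 2 alone carried the letter B in its title, and it alone was female, judged by Xist and Y-linked mRNAs. Among 3 mutants and 2 controls of letter A the differences ran from -0.47 for Stoml3 to -1.40 for Cnga4, and among 1 mutant and 2 controls of letter B from -0.94 for Cnga2 and Stoml3 to -2.29 for Cnga4. Within males (3 mutants, 2 controls) they ran from -0.46 to -1.36 and within females (1 mutant, 2 controls) from -0.94 to -2.33. With letter or sex as a block, all 7 passed 0.01. Of the 19928 genes tested, 603 and 573 were then lower, against 412 without a block. The part of letter and sex in mutant 2's values was not tested.

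The control genotypes gave similar core values. The 123Cre:Lhx2fl/+ minus Lhx2fl/+ difference was between 0.00 for Stoml3 and 0.10 for Ano2 (SE 0.14 to 0.31), and 0 of 7 passed by limma, with unadjusted p-values from 0.571 to 0.985. No gene of the array passed this comparison after adjustment (0%, and 7.78% at an unadjusted p under 0.05). Among controls, genotype and title letter cannot be told apart.

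Whether the core genes differed from Omp was examined on the difference between each gene and Omp on the same array. For Cnga4 this difference was -2.87, -3.23, -2.91 and -2.94 in the mutants and -2.39, -2.29, -2.41 and -2.30 in the controls. All mutants were lower, a shift of -0.64 (exact permutation p = 0.0286, two-sided, the smallest that 4 against 4 arrays can give), so relative to Omp Cnga4 stood at 64.3% of its control ratio. Only 0.647% of all genes had all mutants below all controls relative to Omp. Cnga2, Ano2 and Stoml3 lay higher relative to Omp in every mutant than in any control, by 0.35, 0.32 and 0.38 (exact permutation p = 0.0286 each), as did 94.7% of all genes, since Omp itself fell. Adcy3 shifted by 0.11 (exact permutation p = 0.314) and Cngb1 by 0.10 (exact permutation p = 0.143), with groups that overlapped. Without mutant 2 the shifts were -0.56 for Cnga4 and 0.29 to 0.34 for Ano2, Cnga2 and Stoml3.

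**Figure D3:**
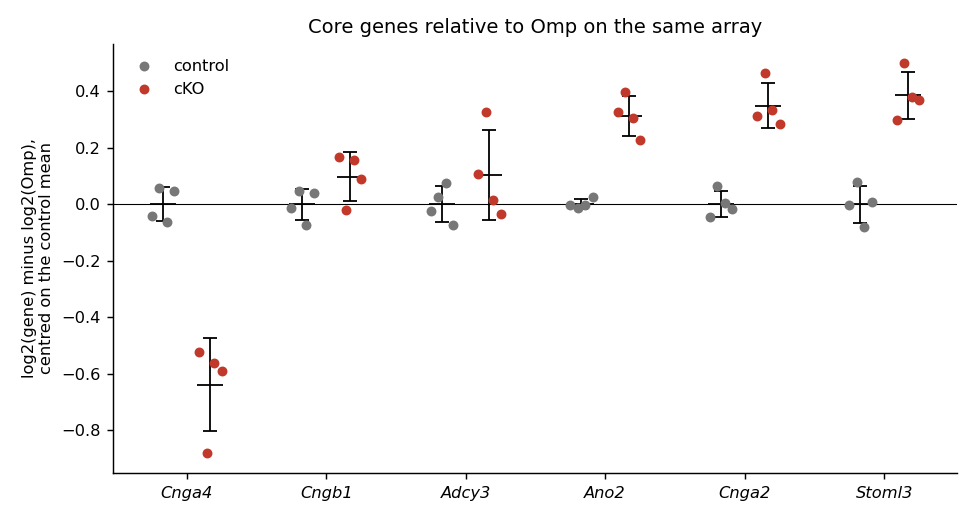
The log2 value of each gene minus that of Omp on the same array is plotted after subtraction of its control mean, for controls (grey) and cKO mice (red), with bars for mean and SD. Cnga4 lies below 0 in all cKO mice with a mean shift of -0.64, Adcy3 and Cngb1 overlap with the controls, and Ano2, Cnga2 and Stoml3 lie above the controls.

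Within the channel, the log2 differences ran from -0.62 for Cnga2 through -0.87 for Cngb1 to -1.60 for Cnga4. Cnga4 relative to Cnga2 read -2.61, -3.12, -2.67 and -2.65 in the mutants and -1.77, -1.78, -1.84 and -1.71 in the controls, a shift of -0.99 (exact permutation p = 0.0286), that is to 50.4% of the control ratio. Cngb1 relative to Cnga2 read -2.11, -2.46, -2.15 and -2.17 in the mutants and -1.94, -1.99, -2.05 and -1.92 in the controls, a shift of -0.25 (exact permutation p = 0.0286) that was -0.17 without mutant 2. Relative to Cnga2, 1.73% of all genes had every mutant below every control and 89.5% every mutant above. These comparisons with Cnga2 were chosen after the values had been seen.

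As a second reference, the mean of 7 measured markers of mature OSNs outside transduction was used, namely Slc17a6, Faim2, Rtp1, Rtp2, S100a5, Umodl1 and Kirrel2. This mean was between 12.15 and 12.26 in controls and between 11.13 (mutant 2) and 11.79 in mutants, a difference of -0.64. Against it, Cnga4 shifted by -0.96, from -1.12 ± 0.04 in controls to -2.08 ± 0.19 in mutants (SD, n = 4 each, exact permutation p = 0.0286). Omp shifted by -0.32 and Cngb1 by -0.22 (exact permutation p = 0.0286 each), each with all mutants below all controls, which held for 1.80% of all genes, while 89.6% had all mutants above. Adcy3 shifted by -0.22 (exact permutation p = 0.0857). Cnga2 (0.03), Ano2 (-0.01) and Stoml3 (0.06) shifted by less than 0.1, with exact permutation p-values of 0.514, 0.886 and 0.200. These small shifts rested on Faim2 (difference -1.81), as the median difference of the markers was -0.46 and the mean without Faim2 differed by -0.45. Against that mean, a reference chosen after the values were seen, Cnga2 shifted by -0.17, Ano2 by -0.20 and Stoml3 by -0.14, Adcy3 by -0.41, Cngb1 by -0.42, Omp by -0.52 and Cnga4 by -1.16. All mutants then lay below all controls for each of the 7 genes (exact permutation p = 0.0286 each), against 2.75% of all genes. Faim2 was left out because its difference was the largest, and its removal lowers every gene relative to the reference. The 7 p-values share this chosen reference and lend no support. With any 1 of the other markers left out instead, Cnga2 lay between 0.00 and 0.12, Ano2 between -0.03 and 0.08, Stoml3 between 0.03 and 0.15 and Cnga4 between -0.99 and -0.87. In all, 15 relative comparisons were computed with the planned and added references, and 7 more without Faim2. When limma was fitted to the subtracted values of all genes, Cnga4 was the only core gene lower at an adjusted p under 0.01, relative to Omp (adjusted p = 0.000927), to the markers (adjusted p = 1.1e-05) and to Cnga2 (adjusted p = 2.05e-07). The shares of all genes that were lower were 0.562%, 1.52% and 1.82%, and those higher 94.9%, 90.2% and 90.9%. Relative to Omp, Stoml3 was higher at 0.05 (adjusted p = 0.0473 by limma), as were 95.7% of all genes, while 0.838% were lower. Relative to the markers, Omp (adjusted p = 0.0776 by limma) and Cngb1 (adjusted p = 0.221 by limma) did not pass. Nor did Cngb1 relative to Cnga2 (adjusted p = 0.13 by limma). These fits have a spread shared by all genes (SE 0.16 to 0.19), because the reference enters every value. The exact tests therefore carry the comparisons with Omp and with the 7 markers. Their p-values cannot fall below 0.0286 and were not adjusted for the number of comparisons.

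The rest of the pathway, 14 measured genes, had a median log2 difference of -0.09. At the 0.01 threshold 1 of them was lower, against 2.07% of all genes, and 0 were higher. The lower one was Pde1c, a calcium-dependent phosphodiesterase that breaks down cyclic AMP in cilia, which read 10.75, 10.59, 10.69 and 10.63 in the mutants and 11.24, 11.06, 11.33 and 11.24 in the controls (difference -0.55, SE 0.07, adjusted p = 0.00352 by limma). Mutant 2 was again the lowest array, here close to mutant 4. The further genes of this paragraph were named after their values were seen. Of them, 4 were lower at an adjusted p under 0.05 by limma, which makes 5 of 14 against 5.17% of all genes. These were Gnal, the G-protein alpha subunit of OSNs (-0.59, adjusted p = 0.0263), Ric8b, which assists that subunit (-0.60, adjusted p = 0.0271), the phosphodiesterase gene Pde4a (-0.34, adjusted p = 0.0188) and Slc24a4, the exchanger that removes calcium from cilia (-0.35, adjusted p = 0.0228). Gng13, the G-protein gamma subunit, had a lower fitted value than all of these (-1.06) but did not pass (SE 0.27, adjusted p = 0.0634), with mutant 2 at 9.96, the other mutants at 11.21 to 11.34 and the controls at 11.91 to 12.15. In these 6 genes and in Calm3, 7 in all, every mutant lay below every control, against 8.43% of all genes. The highest value was that of Rgs2 (0.31, adjusted p = 0.0761).

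**Figure D4:**
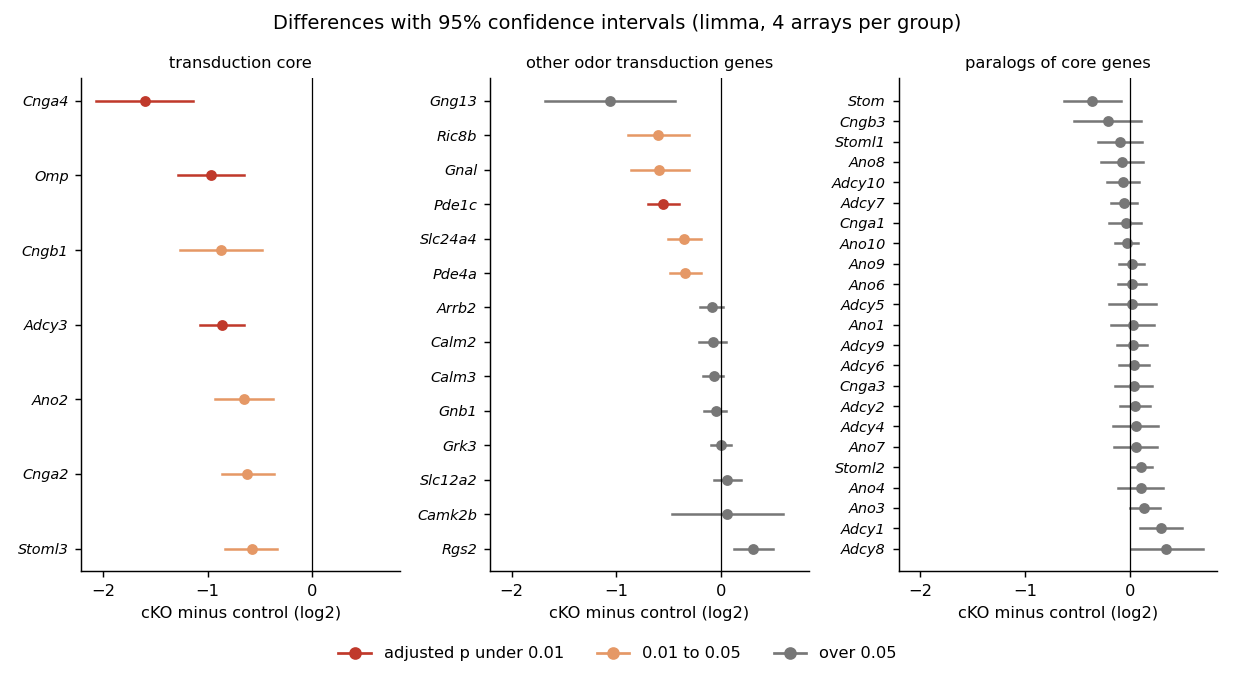
The cKO minus control log2 difference is plotted with its 95% confidence interval for the 7 core genes, 14 other odor transduction genes and 23 paralogs of core genes, coloured by adjusted p. All 7 core intervals lie below 0, while the paralog values run from -0.36 to 0.35 and none is coloured.

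Paralogs of the core genes, some of which read high in this mucosa (Stom averaged 13.25 in controls), were examined for comparison. Of 23 measured, 0 passed by limma in either direction, with 4 higher and 1 lower at an unadjusted p under 0.05, against 5.13% and 9.87% of all genes. Among 9 adenylyl cyclase genes the highest values were those of Adcy8 (0.35, adjusted p = 0.320) and Adcy1 (0.30, adjusted p = 0.103), and Adcy7 (-0.05) and Adcy10 (-0.06) were near 0. The subunits of photoreceptor channels read -0.04 (Cnga1), 0.04 (Cnga3) and -0.21 (Cngb3, adjusted p = 0.571). Among 8 anoctamin genes Ano3 gave 0.14 (adjusted p = 0.330), Ano4 0.11, Ano8 -0.07 and Ano10 -0.03. In the stomatin family Stom, of red blood cells and other tissues, gave -0.36 (adjusted p = 0.177), and here all mutants lay below all controls, though without mutant 2 the difference was -0.22, while Stoml1 (-0.09) and Stoml2 (0.11) did not pass. The CNG paralogs averaged 6.21 to 6.31 in controls, not far above the background of 5.36 given by the median of 162 vomeronasal receptor genes, and a fall in them would be hard to see. The same limit holds for Ano3, Adcy10 and Adcy8, with control means of 5.65, 5.81 and 6.40.

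Markers of the cells around the core were read in the same fit. List members named singly in this paragraph were named after their values were seen. Of 7 mature OSN markers outside transduction, 2 fell, Slc17a6 (-0.46) and Faim2 (-1.81), and 0 were higher. At 0.05 Kirrel2 (-0.79, adjusted p = 0.0184 by limma) and Rtp1 (-0.37, adjusted p = 0.0327 by limma) were lower too, 4 of 7 in all. At an unadjusted p under 0.05, 6 of the 7 were lower, and for 6 all mutants lay below all controls. Of 14 immature OSN markers, Stmn4 fell (-0.30), and 4 (Gap43, Dcx, Stmn4 and Ncam1) were lower and 1 (Marcksl1) higher at an unadjusted p under 0.05. The groups did not overlap for 4 members, each with the mutants lower. The median difference was -0.01, and the list mean spanned 11.93 to 12.09 in mutants and 12.08 to 12.16 in controls. None of the lists for 5 progenitor and dividing cell genes, 5 of sustentacular cells, 5 of microvillous cells, 6 of respiratory ciliated cells, 3 of vomeronasal neurons, 3 of ensheathing glia and 5 of macrophages had a member past an adjusted p of 0.01 or 0.05 by limma, and their medians were between -0.07 and 0.13. At an unadjusted p under 0.05, 3 progenitor and dividing cell genes and 1 microvillous cell gene were higher and 2 respiratory ciliated cell genes lower. Over all genes tested 5.13% were higher and 9.87% lower at this level, 8.43% had all mutants below all controls, and 2.07% and 5.17% were lower at adjusted p-values under 0.01 and 0.05. Progenitor and dividing cell genes were at 11.49 to 11.62 in mutants and 11.38 to 11.44 in controls, with the highest mean in mutant 2. The 1 measured blood gene, Alas2, differed by -0.26 (adjusted p = 0.424). No list member averaged at or below the background, and Cyp2g1, a cytochrome of sustentacular cells (between 14.28 and 14.32 on all arrays), and Omp mark the tissue as olfactory mucosa. The part of these cell types in the core values was not tested.

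Over the 8 arrays, the genes whose profiles were most like the mean of the core were found by the root mean square distance between profiles centred on their own means. Outside the lists and the chemoreceptor families these were Kcnc4, a voltage-gated potassium channel (distance 0.0387), Fam81b (0.0550), Mslnl (0.0731), Slc24a2, a potassium-dependent sodium-calcium exchanger (0.0756), and Gramd1c (0.0759), against a median of 0.501 over all genes. Kcnc4 read 10.68, 10.10, 10.60 and 10.54 in the mutants and 11.23, 11.32, 11.34 and 11.36 in the controls, a log2 difference of -0.83. The other 4 differed by -0.77 to -0.88. Of the core itself, Omp (0.0496) and Cngb1 (0.0647) lay nearest to the mean profile and Cnga4 (0.380) farthest from it. The arrays share their group and mutant 2, which shape all such profiles.

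**Figure D5:**
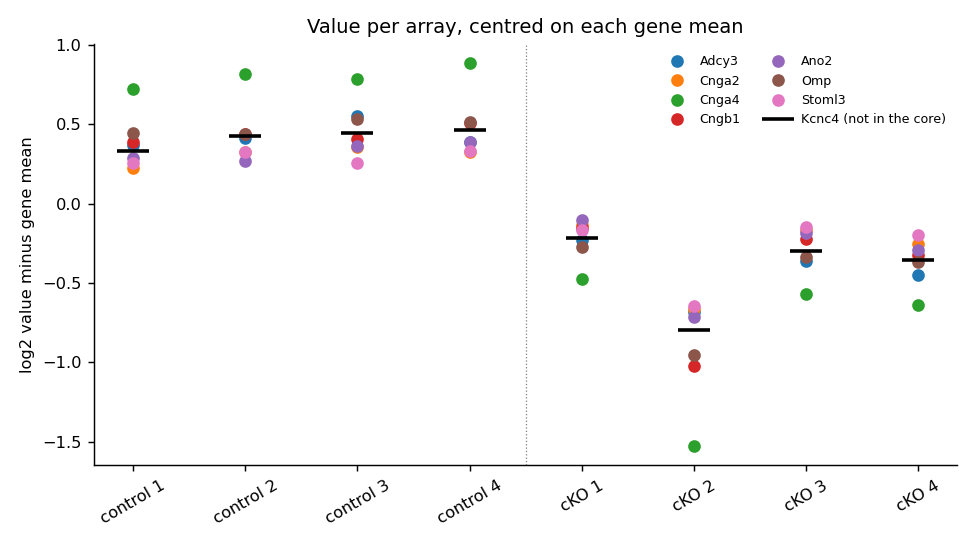
Log2 values of the 7 core genes (circles) and of Kcnc4 (black bars), each minus the mean of that gene, are plotted for the 8 arrays, which have no order within a group. The genes lie close together on each array except Cnga4, which is highest in every control and lowest in every cKO mouse, and all are lowest in cKO mouse 2.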

How the data were processed

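The authors deposited log2 values, 1 per array for each of 28312 transcript clusters of the GeneChip Mouse Gene ST array, made with Affymetrix Expression Console per the submitters' processing notes. The sources used here do not give its version, the summarization, the normalization between arrays or the genome build. Array quartiles differed by at most 0.12. Log2 signals compress changes of dim genes, and the number of arrays limits the precision (median SE of a difference 0.07). Of the clusters, 21759 carried 1 gene symbol in the platform annotation. The cluster with the highest mean was kept for each gene, which left 19928 genes.

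The mutants were compared with all controls by limma 3.58.1 in R 4.3.3 (lmFit and eBayes, two-sided) with Benjamini-Hochberg adjustment over all genes and a threshold of 0.01. Single genes relative to a reference on the same array were compared by exact permutation over 70 arrangements. The fit was tested on simulated data with known changes. Alternatives were the t-test of the methods, a threshold of 0.05, trended and robust eBayes, quantile normalization, a filter below log2 7.52, all clusters, array weights, blocks for title letter or sex, either control genotype alone and leaving out each array, with each marker left out of the reference added later. The study's own correction for mature OSNs uses an mRNA list that was not used here. By the account of the study, that list showed a small mean decrease in these mutants. The marker mean used here, which differed by -0.64, is another measure, and shifts against it are not shifts against that correction.

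The core genes, lists and motifs were chosen with earlier results of these data known. Genes named outside the core were set by rule: Lhx2, pathway genes and paralogs past the threshold or otherwise up to 4 per family with the smallest p, and the 5 most similar profiles. Names outside this rule are said to be so. Marker lists held 1 to 14 measured genes. Replicate numbers only name arrays. Litters are not named in the labels, so p-values measure the spread between these mice.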

Additional observations from a re-analysis of the deposited data

Results flagged for a closer look

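Dixon's ratio, the gap between an extreme array and its nearest neighbour divided by the range of its group, was computed in 46 groups of 4 arrays, where chance flags about 1 in 20 groups, and exceeded the 95% critical value for 4 samples in 8. In 7 of these the extreme array was mutant 2, on the low side: Cnga4 (0.848), Omp (0.863), Stoml3 (0.902) and Lhx2 (0.971) as deposited, Cnga4 relative to the mature OSN markers (0.930), and Cnga4 (0.881) and Cngb1 (0.843) relative to Cnga2. The groups are not independent, since all 46 come from the same 8 arrays. Control 3 was high for Cnga2 relative to the mature OSN markers (0.909), where controls lay between 0.62 and 0.75.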

How the results depend on the processing

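No paired analysis was possible because the labels give the groups no shared replicate numbers. Of the 3 core genes that fell, the count became 0 with the t-test of the methods and with only Lhx2fl/+ or only 123Cre:Lhx2fl/+ controls, and 7 at an adjusted p under 0.05 and with title letter or sex as a block. It was 4 with array weights, and with 1 array left out it ran from 0 to 7. The count of other odor transduction genes, 1, became 0 with the t-test and with either control genotype alone, 5 at 0.05, 4 with letter or sex as a block, and 0 to 4 with 1 array left out. The count of core genes lower relative to mature OSN markers, 1, became 0 with the t-test and with only Lhx2fl/+ controls, 3 with array weights, and 1 to 3 with 1 array left out. That of core genes differing from Omp, 1, became 4 with the t-test and with array weights and 2 at 0.05 and with letter as a block. It was 0 with either control genotype alone, and 1 to 4 with 1 array left out. The genes that joined Cnga4 in this count were Cnga2, Ano2 or Stoml3, each higher relative to Omp. In the main fit 94.9% of all genes were higher relative to Omp at 0.01, and 0.562% lower. Under all of the alternatives, all 7 core genes were lower than in controls at an unadjusted p under 0.05. The counts of paralogs and of control genotype differences stayed at 0 wherever they could be fitted. Over all genes 412 were lower, against 0 with the t-test and with either control genotype alone and 1031 at 0.05. The number was 603 with title letter and 573 with sex as a block, and 512 with array weights. It was 657 without mutant 2, and 30 to 99 without mutant 3, mutant 4 or a control. The t-test here took values without the study's correction for mature OSNs and was adjusted over all genes. Its counts are not those of the study, which reports many odorant receptor mRNAs as lower by its own procedure. The part of these differences in procedure in the counts was not tested. Trended and robust eBayes, quantile normalization, the filter on low genes and keeping every cluster left the counts of core, pathway and paralog genes as they were. Differences of single core genes kept their direction in all 19 alternatives, between -1.36 and -1.72 for Cnga4, -0.81 and -1.05 for Omp, -0.78 and -0.93 for Adcy3, and -0.46 and -0.64 for Stoml3. Cnga4 was lower relative to Omp by -0.56 to -0.68 and relative to Cnga2 by -0.87 to -1.04. Leaving Faim2 out of the mature OSN markers, chosen after seeing the data, moved Cnga2 from 0.03 to -0.17 and Stoml3 from 0.06 to -0.14, a change of sign, and Ano2 from -0.01 to -0.20. Fewer arrays or controls enter several of these fits. Apart from that, the cause was not tested.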
